A study of Saccharomyces cerevisiae with 17 samples.

Results

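The strain VIN13 was compared with the strain BM45 at day 2 of fermentation, in exponential growth. Both are commercial Saccharomyces cerevisiae wine yeasts. They were grown in must of the grape cultivar Colombar with little oxygen, and the labels name no other treatment or genotype. The comparison takes the 5 arrays labelled day 2, 3 of VIN13 and 2 of BM45, out of 17 arrays in the series. The other 12 arrays, 6 each from day 5 and day 14, in stationary phase, enter the estimate of error and the comparison between days. Each array gave 1 intensity for each of 5449 S. cerevisiae genes. Separate cultures are not mentioned for the arrays of a group, so the p-values may measure technical spread only. Each group is 1 strain, and the array probes were designed on a laboratory yeast. A gene that a wine strain lacks or carries with another sequence and a gene that it does not transcribe therefore cannot be told apart.

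A yeast in grape must first uses glucose and fructose and the nitrogen sources it prefers, such as ammonium and glutamine. Nitrogen catabolite repression keeps permeases and enzymes for poorer sources, among them allantoin, urea and proline, low while preferred sources last. Fast growth goes with high expression of the factors that assemble ribosomes, whereas reserve carbohydrates and chaperones belong to slower growth and stress. Wine strains also differ from each other in the gene families near chromosome ends, which hold sugar permeases, cell wall proteins and flocculins.

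Across the array 1702 of 5449 genes (31.2%) differed between the strains at an adjusted p under 0.05, with 433 higher in VIN13 (7.95% of all genes) and 1269 lower (23.3%). At least 2-fold differences were found for 133 higher genes (2.44%) and 119 lower genes (2.18%). The median difference of all genes, VIN13 minus BM45, was -0.13 on the log2(intensity + 16) scale on which all differences are given, so small decreases were common. In RNA of a whole culture, fewer cells of a type and less RNA per cell cannot be told apart. Centring each array on its median gene moved that median to 0.04 and the split to 886 higher and 647 lower, and quantile normalization gave 728 and 838. Directions of small differences depend on this scaling. When only the 5 day 2 arrays estimated the error, limma called 108 genes (1.98%), 57 higher and 51 lower, with 1281 at an unadjusted p under 0.05. All 108 were also called with 17 arrays. Without BM45 replicate 4 the number of higher genes was 232, and without BM45 replicate 2 it was 950, with the remaining BM45 array assumed to vary like the other groups.

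The median gene had intensities between 950.9 and 1150.4 on the day 2 arrays. Correlations across genes, which are not independent replicates, were 0.969 to 0.992 within VIN13, 0.964 between the BM45 arrays and 0.918 to 0.950 between strains. RNA integrity was gauged by ACT1, whose probe sets for the 3′ and 5′ ends of the transcript gave signal ratios of 5.55, 1.70 and 3.0 in VIN13 replicates 1, 2 and 3, against 2.29 and 5.33 in BM45 replicates 2 and 4. By ACT1 each strain thus had 1 array of high ratio. By WBP1, a second gene with such probe sets, the ratios were 11.4, 3.88 and 7.67 in VIN13, against 6.16 and 33.6 in BM45, so BM45 replicate 4 stood apart by that gene, with its 5′ signal of 97 under the background bound of 100.7. That bound is the 95th percentile of the Schizosaccharomyces pombe probe sets on the array. The part of RNA integrity in the differences between the strains was not tested beyond leaving arrays out and an ACT1 covariate. Calls numbered 1613 without VIN13 replicate 1 and BM45 replicate 4, 326 higher and 1287 lower. The BM45 arrays were over 2-fold apart for 472 genes (8.66%), of which 95 were called.

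**Figure D1:**
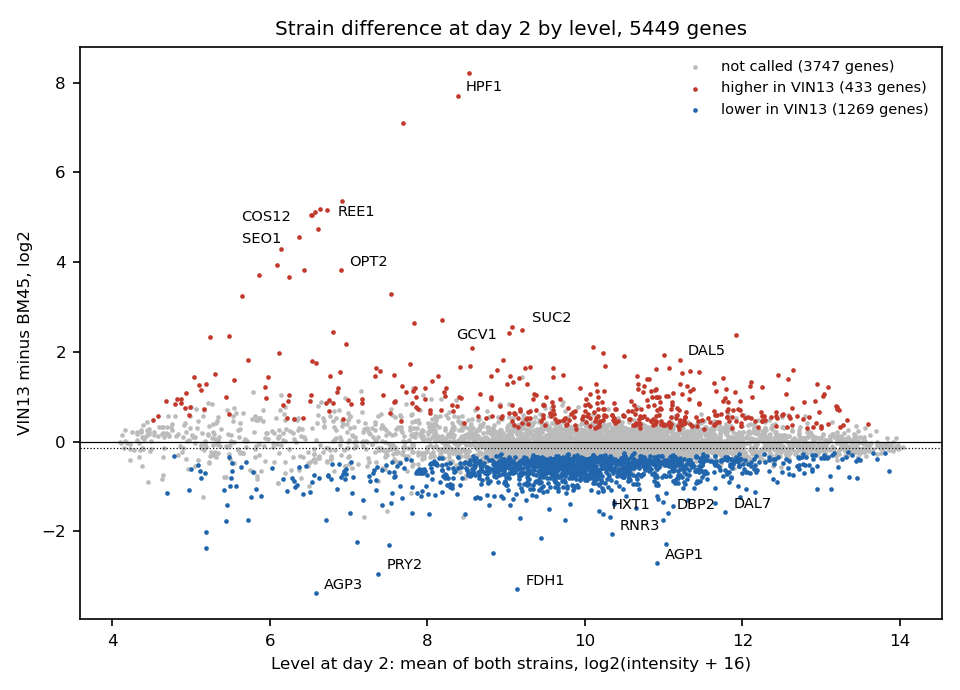
Difference between the strains at day 2 (VIN13 minus BM45, log2, vertical axis) against the mean level of both strains (log2 of intensity plus 16, horizontal axis), 1 point per gene. Red points are the 433 genes called higher in VIN13, blue points the 1269 called lower and grey points the rest, and the dotted line is the median of all genes, -0.13. The decreases end at -3.37, for AGP3, while increases reach 8.21, for YDR316W-B, and at both ends the dimmer strain was at background.

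The largest increases were genes bright in VIN13 and at background in BM45. HPF1, which encodes a cell wall mannoprotein known to reduce haze in wine, had intensities of 4480.4, 5090.0 and 4918 in VIN13, against 2 and 13.5 in BM45. It was at least 41.5-fold higher in VIN13 (adjusted p = 7.15e-13). This fold sets the VIN13 mean against the background bound, because both BM45 arrays lay under it. YDR316W-B, a retrotransposon reading frame, read 6272, 7235 and 5586 in VIN13, against 2.6 and 8.5 in BM45, which is at least 54.4-fold higher (adjusted p = 2.34e-15). Other retrotransposon frames among the 15 largest increases were YDR261W-B at 7.11, YAR009C at 5.18, YDR261C-D at 5.12, YHL009W-B at 4.73 and YAR010C at 3.94. Such elements occur in several copies, so these values cannot be assigned to single genes. The 15 largest increases and the 15 largest decreases were taken only from genes where no VIN13 array overlapped a BM45 array. That condition held for 2294 of all 5449 genes (42.1%). For REE1, a gene of enolase regulation, the arrays gave 516, 558 and 825 in VIN13, against 1.7 and 1.7 in BM45, at least 5.45-fold higher (adjusted p = 2.38e-11).

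Several of these genes belong to families near chromosome ends. COS12, of the COS family of membrane proteins, had 582, 462 and 519.8 in VIN13, against 0 and 0.1 in BM45, and SEO1, a putative permease gene, had 356, 357 and 446 in VIN13, against 1.8 and 0.2 in BM45. They were at least 4.58-fold and at least 3.43-fold higher in VIN13 (adjusted p = 5.96e-11 and 1.08e-10). VTH1, which encodes a relative of a vacuolar sorting receptor, read 193, 338 and 400.3 in VIN13, against 0 and 0 in BM45 (at least 2.68-fold, adjusted p = 7.03e-10). OPT2, an oligopeptide transporter gene, read 255, 486 and 644 in VIN13, against 15.5 and 16 in BM45 (at least 3.84-fold, adjusted p = 1.32e-06). On all of these, each BM45 array lay far under the bound of 100.7. YOL159C-A and YGL262W, genes with only a systematic name, were at least 6.61-fold and at least 4.55-fold higher in VIN13 (adjusted p = 6.58e-14 and 7.15e-13).

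Counted over all genes, 29 were above the bound on all 3 VIN13 arrays and below it on both BM45 arrays, and all 29 were called. 18 genes showed the reverse, above it on both BM45 arrays and below it on all VIN13 arrays, and 17 of them were called. Among the 18 was AGP3, an amino acid permease gene with 13, 13.5 and 14.7 in VIN13, against 276 and 309 in BM45, at least 2.64-fold lower in VIN13 (adjusted p = 5.96e-11). PRY2, of the sterol-binding PRY family, had 39.7, 47.3 and 45.4 in VIN13, against 519 and 380.1 in BM45 (at least 3.94-fold lower, adjusted p = 4.36e-05). For both genes the VIN13 arrays lay close to each other and far under either BM45 array. FRM2, a nitroreductase-like gene, was at least 1.64-fold lower in VIN13 (adjusted p = 3.48e-06).

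Some called genes stood next to each other on a chromosome. Runs of at least 3 consecutive tested genes called in one direction numbered 8 for increases, with 27 genes, and 58 for decreases, with 204 genes. Over all genes 7.95% were called higher and 23.3% lower, and calls at those shares form some runs without any tie to position. Whether the runs outnumber those was not tested. The longest run of decreases held 8 genes on chromosome VI, from YFL065C over YFL064C, COS4, DDI3, SNO3, SNZ3 and AAD6 to AGP3, with a median of -1.36. In it YFL065C read 181, 184 and 165 in VIN13, against 831 and 1353 in BM45, a difference of -2.48 ± 0.20 (adjusted p = 7.94e-07). The vitamin B6 genes SNO3 and SNZ3 had differences of -1.21 ± 0.14 and -1.09 ± 0.12. AAD6, of the aryl alcohol dehydrogenase family, was at 0 on all VIN13 arrays and read 138 and 28.6 in BM45, so that one BM45 array also lay under the bound.

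Increases formed shorter runs of at most 4 genes. On chromosome X the run HXT9, YJL218W, REE1 and IMA5 had a median of 2.79, and on chromosome VII the run IMA1, MAL13 and MAL11 had a median of 1.82. The run TIR4, TIR2, AUS1 and YOR011W-A on chromosome XV had a median of 1.03. Median differences of whole chromosomes lay between -0.20 on chromosome III and -0.09 on chromosome V, near the -0.13 of all genes. Members of the COS, HXT, MAL, IMA, AAD, SNO, SNZ and PAU families are near copies of each other, and their values are open to cross-hybridisation throughout.

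The genes of the glycine cleavage complex GCV1, GCV2 and GCV3 were higher in VIN13. The glycine cleavage complex of mitochondria breaks glycine down to carbon dioxide, ammonium and a one-carbon unit carried by folate. GCV1, its T protein, had intensities of 1131, 1388 and 1102 in VIN13, against 255 and 171 in BM45, a difference of 2.43 ± 0.21 (adjusted p = 1.19e-06). GCV2, its P protein, had 3228, 3688 and 3192 in VIN13, against 986 and 1184 in BM45 (1.62 ± 0.14, adjusted p = 1.56e-06). GCV3, its H protein, had 4538, 4784 and 4788 in VIN13, against 2614 and 2406 in BM45 (0.90 ± 0.11, adjusted p = 3.41e-05). All 3 subunit genes lay higher on each VIN13 array than on either BM45 array, and 42.1% of all genes had no overlap between the strains. The strain means of the 3 genes were apart by 5.4-fold, 3.08-fold and 1.87-fold.

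Around the complex, SHM2, the cytosolic serine hydroxymethyltransferase gene, differed by 0.87 ± 0.15 (adjusted p = 0.000776), and MTD1, a methylenetetrahydrofolate dehydrogenase gene, by 0.72 ± 0.09 (adjusted p = 7.61e-05). The 2 genes for the first enzyme of serine synthesis went opposite ways. SER3 read 2075, 2298 and 2150.5 in VIN13, against 716 and 617 in BM45 (1.68 ± 0.10, adjusted p = 1.81e-08), whereas its paralog SER33 read 2222, 1635 and 1446 in VIN13, against 2722 and 3479 in BM45 (-0.82 ± 0.15, adjusted p = 0.00135). FDH1, the formate dehydrogenase gene, was among the largest decreases of the comparison. It had 132, 179 and 189 in VIN13, against 1907 and 1602 in BM45, a difference of -3.29 ± 0.14 or 9.75-fold lower (adjusted p = 1.08e-10).

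Of the 14 tested genes for serine, glycine and one-carbon metabolism, 6 were higher and 3 lower, with a median of 0.31. Over all genes 7.95% were higher and 23.3% lower. The third lower gene was CHA1, of serine breakdown, at -0.49 (adjusted p = 0.0465), and the 5 not called were SER1, SER2, SHM1, GLY1 and ADE3. With the day 2 arrays alone GCV1, GCV2, GCV3 and SER3 were still called higher (adjusted p = 0.00912, 0.013, 0.045 and 0.00912) and FDH1 lower (0.00148), while SHM2, MTD1 and SER33 were not (0.0722, 0.0706 and 0.12).

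**Figure D2:**
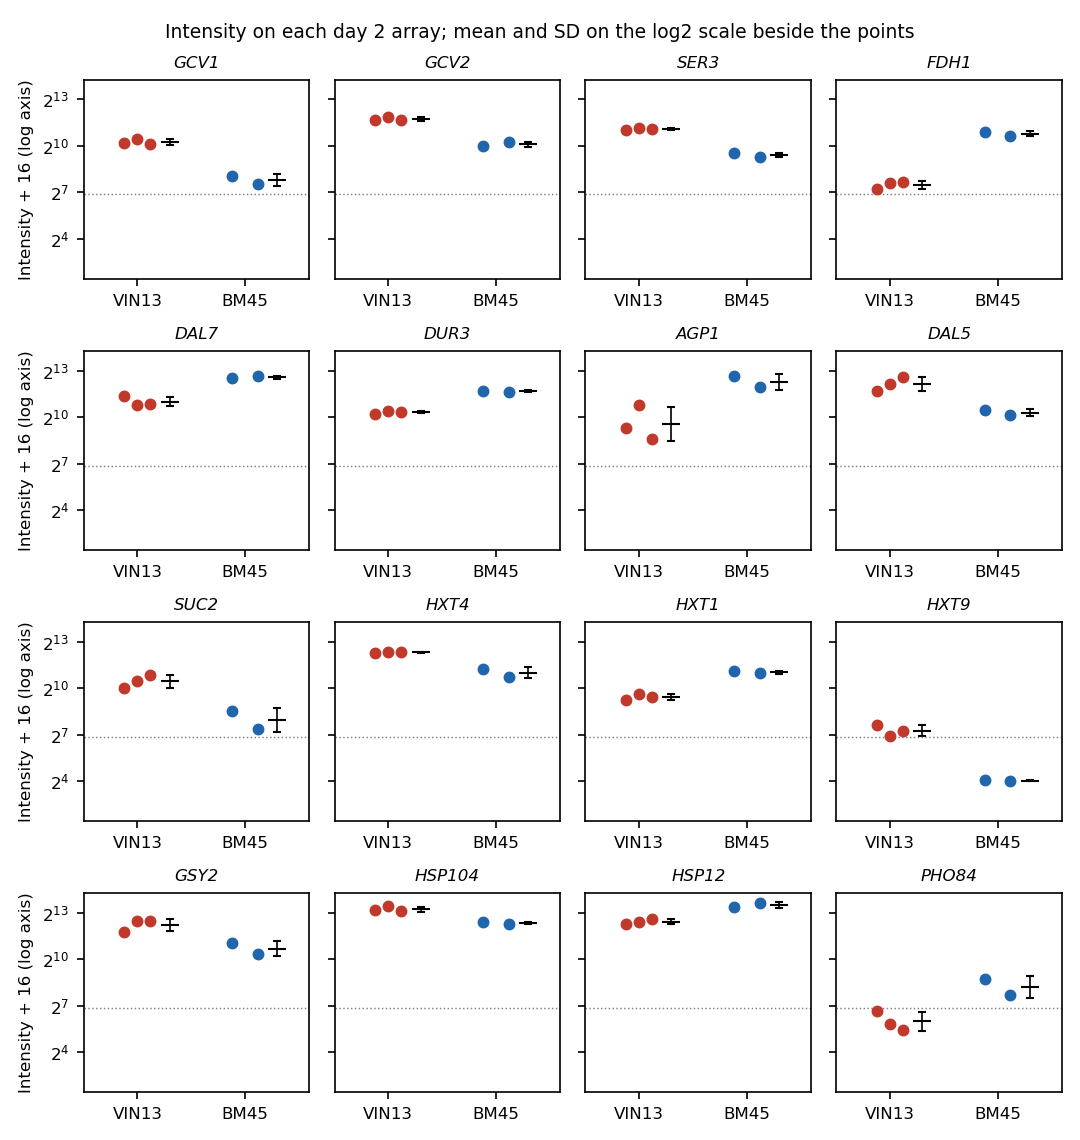
Intensity of 16 genes on each day 2 array (intensity plus 16, log axis), with 3 VIN13 arrays in red and 2 BM45 arrays in blue. The black mark beside each group is the mean with its SD on the log2 scale, and the dotted line is the background bound of 100.7. For each of the 16 genes no VIN13 point overlaps a BM45 point, as for 42.1% of all genes. For the largest decreases among them, such as FDH1, this was a condition of choice. HXT9 lies under the bound in BM45 and PHO84 under it in VIN13.

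5 neighbouring genes of allantoin use were lower in VIN13. Allantoin, a purine breakdown product, is a poor nitrogen source that yeast degrades to urea and ammonium. DAL2, the allantoicase gene, had intensities of 1683, 859 and 909.6 in VIN13, against 3904 and 3498 in BM45 (-1.74 ± 0.21, adjusted p = 4.36e-05). DAL4, the allantoin permease gene, had 112, 162.9 and 126 in VIN13, against 543 and 355 in BM45 (-1.62 ± 0.25, adjusted p = 0.000327). DAL7, a malate synthase gene of this pathway, had 2616, 1739 and 1843 in VIN13, against 5732 and 6321 in BM45 (-1.56 ± 0.17, adjusted p = 1.58e-05). On each of these genes both BM45 arrays lay above the highest VIN13 array, where 42.1% of all genes had no overlap between the strains.

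Their neighbours DCG1, a nitrogen-regulated gene of the same cluster on chromosome IX, and DAL3, the ureidoglycolate lyase gene, differed by -1.62 ± 0.19 (adjusted p = 3.28e-05) and -0.95 ± 0.12 (adjusted p = 7.36e-05). Together the 5 form a run of consecutive decreases with a median of -1.62. The urea transporter gene DUR3, on chromosome VIII, read 1180.5, 1328 and 1278 in VIN13, against 3322 and 3166 in BM45 (-1.35 ± 0.11, adjusted p = 8.42e-07), and MEP3, an ammonium permease gene, read 1702, 1739 and 1365 in VIN13, against 4652 and 3384 in BM45 (-1.31 ± 0.16, adjusted p = 4.8e-05). DAL5 behaved in the opposite way. This permease gene for allantoate and dipeptides had 3256, 4434 and 5986 in VIN13, against 1365 and 1113 in BM45 and was 3.55-fold higher in VIN13 (1.83 ± 0.20, adjusted p = 1.69e-05).

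GDH1 and GLN1, both of ammonium assimilation and named after their values were seen, were lower as well. GDH1, the main glutamate dehydrogenase for synthesis, had 1043, 1857 and 1233 in VIN13, against 4101 and 3239 in BM45 (-1.44 ± 0.23, adjusted p = 0.000453). GLN1, glutamine synthetase, had 7347, 9079 and 7514 in VIN13, against 14507 and 12898 in BM45 (-0.78 ± 0.11, adjusted p = 0.000188). Neither was called with the day 2 arrays alone (adjusted p = 0.0668 and 0.0785). Of the 25 tested genes of allantoin and urea use and nitrogen catabolite repression, 2 were higher and 9 lower (of all genes 7.95% and 23.3%). Their median was -0.13, equal to that of all genes. The 14 others were not called, among them DAL1, the allantoinase gene of the first step, at -0.35 (adjusted p = 0.356), the general amino acid permease gene GAP1 at 0.14 and the regulators GAT1 at -0.13, DAL80 at 0.22 and GZF3 at 0.07. With the day 2 arrays alone 1 was called higher and 6 lower, and without both arrays of high ACT1 ratio 2 higher and 10 lower. Without BM45 replicate 2, 5 were higher, and without BM45 replicate 4, 1 was.

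Permeases for amino acids were split between the strains, with 4 of 20 higher and 6 lower in VIN13 (of all genes 7.95% and 23.3%) and a median of 0.11. ALP1, which takes up arginine and other basic amino acids, had 1168, 1215 and 1525 in VIN13, against 296 and 142 in BM45 (2.56 ± 0.23, adjusted p = 1.82e-06). DIP5, for glutamate and aspartate, had 819.7, 810.5 and 667 in VIN13, against 234 and 119 in BM45 (2.08 ± 0.23, adjusted p = 1.59e-05). Both were over 4-fold higher in VIN13, at 5.9-fold and 4.23-fold. PUT4, the proline permease gene, read 2631, 4660.2 and 4701 in VIN13, against 2278 and 1154 in BM45 (1.24 ± 0.27, adjusted p = 0.00373), a call that ended without BM45 replicate 4 (adjusted p = 0.0636).

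On the lower side, AGP1, a permease of broad range, had 601, 1736 and 375 in VIN13, against 6279.5 and 3833 in BM45. Its VIN13 arrays were spread over more than 4-fold and still lay under both BM45 arrays (-2.71 ± 0.50, adjusted p = 0.00121), and the call was lost with the day 2 arrays alone (adjusted p = 0.0893). MMP1, the S-methylmethionine permease gene, read 360.1, 306 and 257 in VIN13, against 668 and 793 in BM45 (-1.21 ± 0.13, adjusted p = 1.07e-05). Together with AGP3, described above, the permeases of this list span from -3.37 to 2.56. The counts moved with the BM45 arrays, to 7 higher and 4 lower without replicate 2 and to 2 higher and 7 lower without replicate 4. The general permease gene GAP1, at 0.14, and the arginine permease gene CAN1, at -0.09, were not called.

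Many genes of sulfate assimilation were lower in VIN13. The pathway takes up sulfate, activates it and reduces it to sulfide for methionine and cysteine. Of 26 tested genes 13 were lower and 1 higher (of all genes 23.3% and 7.95%), and the median was -0.52, against -0.13 for all genes. In order along the pathway, the sulfate permease gene SUL2 had 1494, 1749 and 1001 in VIN13, against 2966 and 2492 in BM45 (-0.97 ± 0.23, adjusted p = 0.00567), and MET3, ATP sulfurylase, had 931, 962 and 694 in VIN13, against 1845 and 1406 in BM45 (-0.90 ± 0.16, adjusted p = 0.0008). MET16, which reduces activated sulfate, had 1423, 1198 and 845 in VIN13, against 2295 and 2453 in BM45 (-1.06 ± 0.18, adjusted p = 0.000609). MET1, of the synthesis of siroheme, the cofactor of sulfite reductase, differed by -0.84 ± 0.10 (adjusted p = 3.02e-05). MET17, which makes homocysteine from sulfide, differed by -0.70 ± 0.16 (adjusted p = 0.00378). These decreases were of 1.63-fold to 2.08-fold. No arrays of the strains overlapped in any of these genes, as for 42.1% of all genes.

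SSU1, which encodes the sulfite efflux pump of wine yeast, had 5532, 6437 and 6575 in VIN13, against 12473 and 13344 in BM45, 2.09-fold lower in VIN13 (-1.06 ± 0.10, adjusted p = 3.94e-06). It was the one list member still called with the day 2 arrays alone (adjusted p = 0.0393), where 13 lower members had an unadjusted p under 0.05. Of all 5449 genes 1281 did, in either direction. MET32, one of the pathway's regulator genes, read 1304, 788 and 510.1 in VIN13, against 1449.8 and 2094 in BM45 (-1.09 ± 0.27, adjusted p = 0.0072). That call ended without BM45 replicate 4, and with 1 day 2 array left out the difference lay between -1.44 and -0.77. The regulator genes MET4, at -0.07, and MET28, at -0.43, were not called (adjusted p = 0.669 and 0.302). SUL1, a second sulfate permease gene, was the one member called higher, but it lay under the background bound on every array (87.8, 62.5 and 62.8 in VIN13, against 38.5 and 19.9 in BM45), and the call ended without BM45 replicate 4 (adjusted p = 0.0705). With median centring 9 members were lower and 2 higher, with a median of -0.35. Of all 5449 genes 647 were then lower and 886 higher, with a median of 0.04.

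Among the gene lists examined, that of ribosome assembly held the most decreases. 40 of 64 tested genes of ribosome biogenesis were lower in VIN13 and 0 were higher (of all genes 23.3% and 7.95%). The median was -0.57 against -0.13 for all genes. DBP2, an RNA helicase gene, had 2169, 1204 and 684 in VIN13, against 3852 and 3498 in BM45 (-1.58 ± 0.30, adjusted p = 0.00137). SSF1, of large subunit assembly, had 588, 321 and 268 in VIN13, against 728 and 1208 in BM45 (-1.30 ± 0.26, adjusted p = 0.00197). NSR1, the yeast nucleolin gene, had 2383, 1347 and 844 in VIN13, against 3379 and 2875 in BM45 (-1.15 ± 0.28, adjusted p = 0.00633). For these 3 genes VIN13 replicate 1 was the highest VIN13 array and replicate 3 the lowest, and BM45 stood above all of them. Of all genes 42.1% had no overlap between the strains. ERB1, also of the large subunit, was tighter, with 1607, 1294 and 1248 in VIN13, against 2374 and 2749 in BM45 (-0.89 ± 0.12, adjusted p = 7.36e-05).

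The counts of this list depended on the fit. Limma called 0 members in either direction with the day 2 arrays alone, where 34 were lower and 0 higher at an unadjusted p under 0.05. Over all 5449 genes 1281 met that threshold, in either direction. With median centring 23 were lower, with a median of -0.40, where 647 of all 5449 genes were lower, with a median of 0.04. Without both arrays of high ACT1 ratio the list median was -0.72, against -0.19 for all genes. Ribosomal proteins themselves gave fewer calls. Of 41 tested genes of cytosolic ribosomal proteins 2 were higher and 4 lower (median -0.14), and of 46 for mitochondrial ribosomes 0 were higher and 10 lower (median -0.24), where 23.3% of all genes were lower. Without BM45 replicate 4, 5 of the mitochondrial ones were lower.

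**Figure D3:**
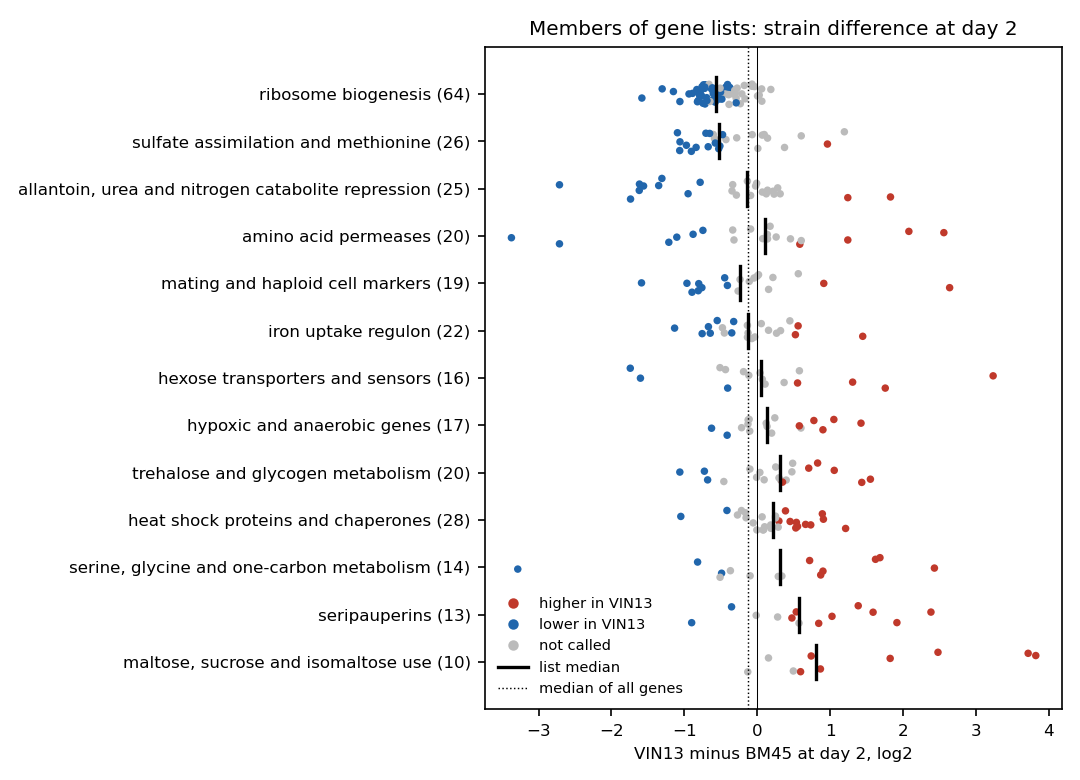
Difference between the strains at day 2 (VIN13 minus BM45, log2, horizontal axis) for the members of 13 gene lists, with the number of tested members in brackets. Red points are called higher in VIN13, blue points called lower and grey points not called, black bars are list medians and the dotted line is the median of all genes, -0.13. Ribosome biogenesis, at -0.57, and sulfate assimilation, at -0.52, have the lowest medians of the 13, and maltose, sucrose and isomaltose use, at 0.80, the highest.

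Of 10 tested genes for the use of maltose, sucrose and isomaltose 7 were higher in VIN13 and 0 lower (of all genes 7.95% and 23.3%). Their median was 0.80. SUC2, the invertase gene that splits sucrose, had 1010.5, 1378 and 1849 in VIN13, against 350.5 and 152 in BM45, 5.58-fold higher (2.48 ± 0.26, adjusted p = 9.63e-06). MAL11, an alpha-glucoside permease gene, had 120.0, 210.3 and 289 in VIN13, against 0 and 0 in BM45, at least 1.81-fold higher (adjusted p = 1.81e-08), and the isomaltase gene IMA3 had 339, 278 and 315 in VIN13, against 4.5 and 9.8 in BM45, at least 2.79-fold higher (adjusted p = 4.99e-09). BM45 showed no signal above the bound for MAL11 and IMA3. MAL13, an activator gene of the maltose locus, was among the 7, but both its group means lay under the bound and no fold is given. 3 members were called with the day 2 arrays alone.

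Hexose transporters, the uptake route of glucose and fructose, showed 4 of 16 higher and 3 lower (of all genes 7.95% and 23.3%), with a median of 0.05. HXT1, a low-affinity transporter gene, had 582, 766 and 684 in VIN13, against 2169 and 1990.4 in BM45 (-1.60 ± 0.15, adjusted p = 3.41e-06). HXT3, the other abundant low-affinity gene, had 8976, 10493 and 10512 in VIN13, against 13243 and 13164 in BM45 (-0.41 ± 0.11, adjusted p = 0.0123), a call that ended with median centring, with the replicate number as a block and without both arrays of high ACT1 ratio. The higher ones were HXT4, with 4973, 5027 and 5126 in VIN13, against 2399 and 1708 in BM45 (1.31 ± 0.13, adjusted p = 3.94e-06), and HXT7, a high-affinity gene, with 8298, 9639 and 8811 in VIN13, against 5884 and 6235 in BM45 (0.55 ± 0.09, adjusted p = 0.000578). No arrays of the strains overlapped in these genes, as for 42.1% of all genes. HXT2, also a high-affinity gene, was at -0.44 and was not called (adjusted p = 0.0624). Dimmer members were HXT9, at 183, 104 and 136 in VIN13, against 0.5 and 0 in BM45 (at least 1.32-fold higher, adjusted p = 2.38e-07), and the galactose permease gene GAL2 (at least 1.52-fold higher, adjusted p = 0.00121). HXT10 read 11, 10.9 and 16.8 in VIN13, against 47.5 and 129.8 in BM45, with both means under the bound, so no fold is given. 8 members were higher without BM45 replicate 2 and 6 lower without BM45 replicate 4.

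Several glycogen genes were higher in VIN13. Both glycogen synthase genes were raised: GSY2 had 3518, 5586 and 5592 in VIN13, against 2062 and 1274 in BM45 (1.55 ± 0.20, adjusted p = 7.36e-05), and GSY1 had 933, 1553 and 1383 in VIN13, against 484 and 430.5 in BM45 (1.44 ± 0.17, adjusted p = 3.41e-05). GPH1, the glycogen phosphorylase gene, which works in the other direction, was higher as well, with 7089, 9612 and 9564 in VIN13, against 5111 and 3382 in BM45 (1.06 ± 0.17, adjusted p = 0.000345). GLG2, one of 2 glycogenin genes that prime synthesis, was lower, with 412, 396 and 499 in VIN13, against 984 and 864 in BM45 (-1.06 ± 0.12, adjusted p = 1.58e-05). Of 20 genes of trehalose and glycogen metabolism 6 were higher and 3 lower (of all genes 7.95% and 23.3%), with a median of 0.31. The list median was 0.16 without BM45 replicate 4 and 0.45 without BM45 replicate 2, and 12 members were higher without VIN13 replicate 1. With the day 2 arrays alone limma called 0 higher, with 4 at an unadjusted p under 0.05. That threshold was met by 1281 of all 5449 genes, in either direction.

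The chaperone genes that were called were mostly higher in VIN13. 11 of 28 genes for heat shock proteins and chaperones were higher and 2 lower (of all genes 7.95% and 23.3%), with a median of 0.22. HSP78, a disaggregase gene of mitochondria, had 6597, 8646 and 7060.4 in VIN13, against 4656 and 2164 in BM45 (1.21 ± 0.22, adjusted p = 0.000883). FES1, an exchange factor gene for Hsp70, had 5519, 5964 and 5046 in VIN13, against 3183 and 2679.6 in BM45 (0.91 ± 0.14, adjusted p = 0.000221). HSP104, the cytosolic disaggregase gene, had 9216, 10960.2 and 8861 in VIN13, against 5311 and 5050.0 in BM45 (0.89 ± 0.10, adjusted p = 2.01e-05). These 3 genes did not overlap between strains, as 42.1% of all genes did not, although the BM45 arrays for HSP78 were more than 2-fold apart. SIS1, a J-protein gene, differed by 0.73 ± 0.15 (adjusted p = 0.00273).

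HSP12, a small stress protein gene with strong stress induction, went against the group. It had 4999, 5485 and 6101 in VIN13, against 10414 and 12508 in BM45 (-1.05 ± 0.12, adjusted p = 1.79e-05). HSP12 was the one member of the list called with the day 2 arrays alone, where 7 were higher at an unadjusted p under 0.05. Of all 5449 genes 1281 met that threshold, in either direction. GRE1, a hydrophilin gene induced by stress, was lower too, with 328, 468 and 611 in VIN13, against 1815 and 1327 in BM45 (-1.74 ± 0.21, adjusted p = 3.72e-05). Without BM45 replicate 4, 7 chaperone genes were higher, and 8 were higher without both arrays of high ACT1 ratio. Among 35 genes of the general stress response 7 were higher and 5 lower (of all genes 7.95% and 23.3%), with a median of -0.01.

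Seripauperins, small cell wall proteins that yeast makes at low oxygen, were mostly higher in VIN13. Of 13 tested PAU genes 8 were higher and 2 lower (of all genes 7.95% and 23.3%), with a median of 0.57. PAU24 had 9419, 10448 and 7104 in VIN13, against 1346 and 2113 in BM45 (2.38 ± 0.21, adjusted p = 1.82e-06), and PAU3 had 2707, 3265 and 2469 in VIN13, against 657 and 807 in BM45 (1.92 ± 0.18, adjusted p = 2.76e-06). PAU9, PAU23 and PAU2 differed by 1.59 ± 0.13, 1.39 ± 0.12 and 1.03 ± 0.15, whereas PAU4 had 3707, 4217 and 4265 in VIN13, against 6676 and 8599 in BM45 (-0.90 ± 0.11, adjusted p = 4.67e-05). The probe sets share much sequence between members, so single members cannot be separated with certainty.

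Other genes of low oxygen were 5 of 17 higher and 2 lower (of all genes 7.95% and 23.3%), with a median of 0.14. ROX1, the repressor of hypoxic genes, had 4415, 5822 and 6916 in VIN13, against 2957 and 1468 in BM45 (1.42 ± 0.25, adjusted p = 0.000923). YHB1, a flavohemoglobin gene of nitric oxide defence, had 11591, 12030.2 and 12640.3 in VIN13, against 7149.8 and 4733 in BM45 (1.05 ± 0.17, adjusted p = 0.000456). AUS1, a sterol importer gene, had 4014, 6958 and 5351 in VIN13, against 2992 and 1858 in BM45 (1.16 ± 0.22, adjusted p = 0.00125). In ROX1, YHB1 and AUS1 no arrays of the strains overlapped, as for 42.1% of all genes. The mannoprotein genes TIR2 and TIR4 beside AUS1 differed by 0.78 ± 0.19 (adjusted p = 0.00666) and 0.90 ± 0.32 (adjusted p = 0.044), and both calls ended without BM45 replicate 4 (adjusted p = 0.107 for TIR2 and 0.397 for TIR4). The TIR4 call also ended without VIN13 replicate 2 or replicate 3. Of the 17 genes 3 were higher without BM45 replicate 4, and likewise 3 without VIN13 replicate 2. Sterol synthesis gave few calls, with 1 of 23 ergosterol genes higher and 1 lower and a median of -0.06. These were ERG4 at 0.49 ± 0.12 (adjusted p = 0.00829, 0.116 without BM45 replicate 4) and HMG2 at -0.67 ± 0.17 (adjusted p = 0.00939).

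Single genes of other pathways were among the largest decreases. PHO84, the high-affinity phosphate permease gene, had 85.8, 40.8 and 28.2 in VIN13, against 411 and 195 in BM45, at least 2.57-fold lower in VIN13 (adjusted p = 9.2e-05). YEL073C, known only by its systematic name, had 1016, 881 and 917 in VIN13, against 5366 and 4003 in BM45 (-2.29 ± 0.13, adjusted p = 8.67e-09). The large subunit genes of ribonucleotide reductase, which makes deoxynucleotides, were opposed. RNR3, the form induced by DNA damage, had 635, 607 and 616 in VIN13, against 3253 and 2130.0 in BM45 (-2.06 ± 0.17, adjusted p = 7.94e-07), whereas RNR1, the main form, had 577, 832 and 792 in VIN13, against 447 and 142 in BM45 (1.46 ± 0.31, adjusted p = 0.0032). The BM45 arrays for RNR1 were over 3-fold apart.

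Glycerol and iron genes gave smaller groups. STL1, a glycerol importer gene, had 521, 423 and 416 in VIN13, against 158 and 148 in BM45 (1.46 ± 0.19, adjusted p = 8.14e-05), and GUT2, of glycerol breakdown, had 283, 440.4 and 457 in VIN13, against 185 and 57 in BM45 (1.73 ± 0.37, adjusted p = 0.00325). The GUT2 call ended without BM45 replicate 4 (adjusted p = 0.0558). Of 22 genes of the iron regulon 3 were higher and 7 lower, with a median of -0.13, the same as for all genes, of which 7.95% were higher and 23.3% lower. FTR1, the iron permease gene, differed by -0.76 ± 0.14 (adjusted p = 0.00121), and FIT2, a mannoprotein gene for siderophore retention, by -1.13 ± 0.27 (adjusted p = 0.00545, 0.0553 without BM45 replicate 4). 7 iron genes were higher without BM45 replicate 2 and 1 without BM45 replicate 4.

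Markers of haploid and of sporulating cells were examined because a culture of wine yeast may hold either. Of 13 haploid markers 0 were higher and 6 lower in VIN13, and 7 lay under the background bound on every day 2 array. Over all genes 7.95% were higher and 23.3% lower. In the wider list of 19 mating and haploid genes 2 were higher and 8 lower, and the higher ones were RME1 and the mating kinase gene FUS3, at 0.91 (adjusted p = 0.011). The summed intensity of the 13 markers was 1862 to 2331 in VIN13, against 3175 to 3379 in BM45. Not called among the 13 were STE3 at 0.56, MFA2 at 0.22 and MF(ALPHA)1 at 0.16. Nor were STE6 at -0.0007, AGA2 at -0.04, BAR1 at -0.11 and MF(ALPHA)2 at -0.26. STE2, the receptor gene for alpha factor, had 186, 215 and 289.6 in VIN13, against 462 and 362 in BM45 (-0.81 ± 0.17, adjusted p = 0.00256). MFA1, a gene for a-factor, had 586, 316 and 408 in VIN13, against 689.9 and 1025 in BM45 (-0.96 ± 0.23, adjusted p = 0.00563, 0.0739 without BM45 replicate 4). STE18, a G protein subunit gene of the mating response, was at least 1.92-fold lower (adjusted p = 0.00264), a call that ended without both arrays of high ACT1 ratio, and HO, the mating type switching gene, stayed under the bound in both strains.

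RME1, a repressor of meiosis, was the largest increase in the list of mating and haploid genes. It had 440.4, 567 and 676 in VIN13, against 192 and 23.9 in BM45 and was at least 3.65-fold higher in VIN13 (adjusted p = 0.000417). IME1, the inducer of meiosis that RME1 represses, read 45.9, 39.9 and 40.6 in VIN13, against 94.6 and 100.2 in BM45, all under the bound, so no fold is given. Of 10 sporulation markers 1 was higher and 2 lower, and 4 lay under the bound on every array. Their sums overlapped, with 6825 to 9065 in VIN13 and 7580 to 9791 in BM45. In the wider list of 22 meiosis and spore genes 1 was higher and 6 lower (of all genes 7.95% and 23.3%). SPR28, a septin gene of that list but not of the 10 markers, differed by -1.01 ± 0.27 (adjusted p = 0.0101). DIT1, a spore wall gene among the 10, differed by 0.89 ± 0.29 (adjusted p = 0.0282). Both calls ended without BM45 replicate 4. With 1 day 2 array left out, SPR28 lay between -1.36 and -0.83 and DIT1 between 0.13 and 1.65. The DIT1 call also ended without VIN13 replicate 2 or replicate 3. Whether the share of such cells differed, and its part in other results, was not tested.

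These differences were compared with those of days 5 and 14, in stationary phase, whose arrays are separate. RNA integrity differed between the days too. ACT1 ratios were 1.70 to 5.55 at day 2 and 1.4 to 2.86 later, and WBP1 ratios 3.88 to 33.6 and 2.40 to 6.17. The part of RNA integrity in the differences between days was not tested beyond leaving day 2 arrays out and an ACT1 covariate. Of the 433 genes higher in VIN13 at day 2, 218 were also called higher at day 5 and 246 at day 14, where 9.89% and 32.4% of all genes were higher. Of them 159 were higher on all 3 days and 128 on neither later day. Of the 1269 lower genes 439 were lower at day 5 and 406 at day 14, where 15.3% and 21.1% of all genes were lower, and 628 were called lower on neither later day. 288 of the 1269 were called higher in VIN13 at day 14. All 3 days share 1 estimate of error per gene, so a gene of small error is more readily called on each day. The shares of all genes take no account of this. A call missed on another day does not show that the strains were alike there, so the difference between days was tested as well.

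The strain difference at day 2 minus its mean at days 5 and 14 was called for 1415 genes (26%), with 302 more positive at day 2 (5.54%) and 1113 more negative (20.4%). With median centring the majority turned, with 718 more positive and 585 more negative. Without BM45 replicate 4 the more positive ones numbered 104, without BM45 replicate 2 904, without VIN13 replicate 1 586 and without VIN13 replicate 2 187. Allantoin genes were among the most negative. DAL4 differed by -1.62 ± 0.25 at day 2, 3.17 at day 5 and 0.56 at day 14, so that its strain difference changed sign (difference between days -3.48 ± 0.30, adjusted p = 6.64e-06). DAL7 had -1.56 ± 0.17, 1.53 and 0.56 on the 3 days (-2.61 ± 0.20, adjusted p = 5.31e-06), and DCG1 had -1.62 ± 0.19, 1.31 and 0.74 (-2.64 ± 0.23, adjusted p = 6.64e-06). The urea transporter gene DUR3 was lower in VIN13 at day 2 (-1.35 ± 0.11), higher at day 5 (1.34) and lower again at day 14 (-0.49). In the whole nitrogen list 1 gene was more positive and 15 more negative at day 2.

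**Figure D4:**
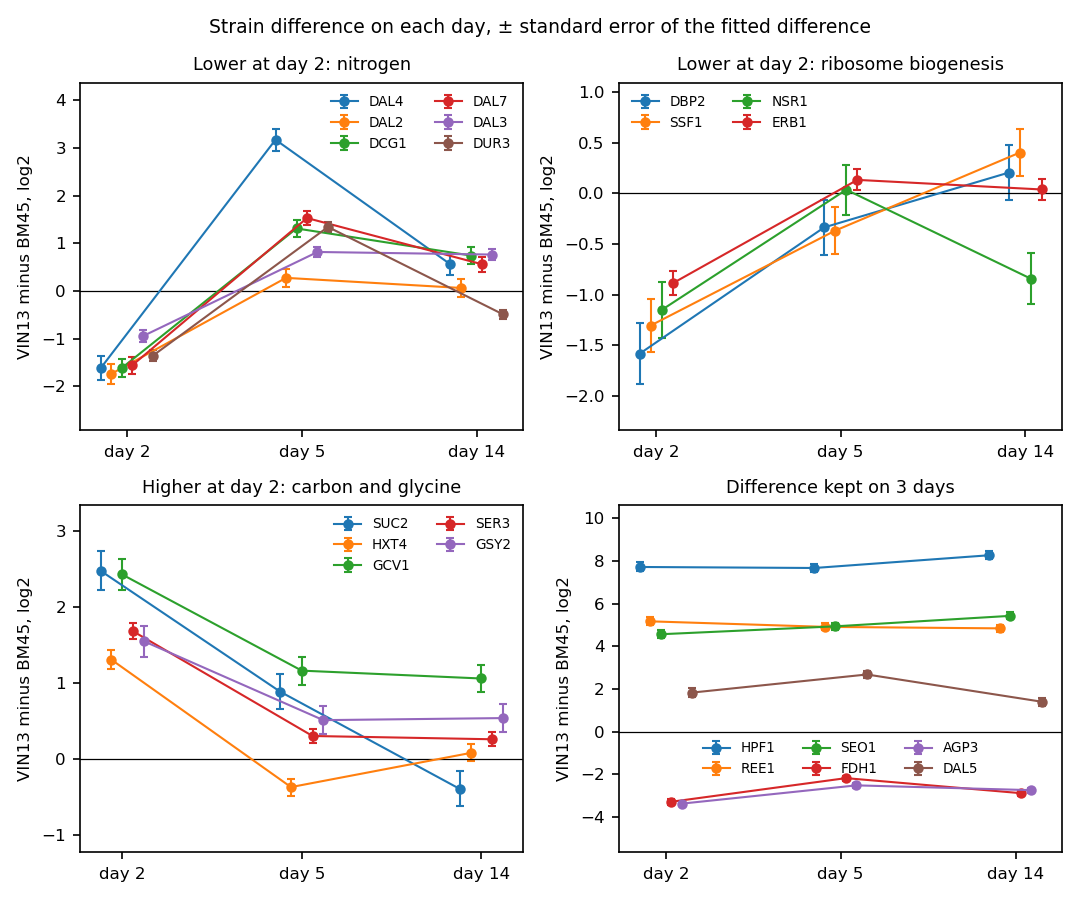
Strain difference (VIN13 minus BM45, log2, vertical axis) on days 2, 5 and 14 for 21 genes in 4 panels, with error bars for the standard error of the fitted difference. The 6 nitrogen genes lie under 0 at day 2 and above it at day 5, from 0.28 for DAL2 to 3.17 for DAL4, and the 6 genes of the last panel keep the sign of their difference on all days.

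In ribosome assembly 35 of the 64 genes were more negative at day 2 and 1 more positive (of all genes 20.4% and 5.54%). The list's median difference was -0.57 at day 2, -0.02 at day 5 and 0.07 at day 14. DBP2 had -1.58 ± 0.30, -0.34 and 0.21 on the 3 days (difference between days -1.52 ± 0.36, adjusted p = 0.00729), and ERB1 had -0.89 ± 0.12, 0.13 and 0.04. In the other direction, SUC2 had 2.48 ± 0.26, 0.89 and -0.39 (2.23 ± 0.31, adjusted p = 0.000318), and HXT4 had 1.31 ± 0.13, -0.37 and 0.08 (1.45 ± 0.15, adjusted p = 4.49e-05). ALP1 was higher in VIN13 at day 2 (2.56 ± 0.23) and lower at day 14 (-0.56). GCV1 and SER3 had smaller differences later, with 1.17 and 1.06 for GCV1 and 0.30 and 0.26 for SER3.

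Other genes were called on every day in the same direction. HPF1 had 7.71 ± 0.21, 7.67 and 8.26 on the 3 days (difference between days -0.25 ± 0.25, adjusted p = 0.48), on a scale where BM45 stayed at background. REE1 had 5.17 ± 0.19, 4.91 and 4.84, and SSU1 had -1.06 ± 0.10, -0.93 and -0.84, with neither called between days (adjusted p = 0.34 and 0.285). FDH1 was lower in VIN13 on each day, at -3.29 ± 0.14, -2.18 and -2.88. Sulfate assimilation kept its low median, at -0.52, -0.75 and -0.66 over the days. The seripauperins were higher in VIN13 by a smaller median at day 2, 0.57, than at day 5, 1.34, and day 14, 1.20. By the test between days 11 of 13 were more negative at day 2, as were 20.4% of all genes.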

How the data were processed

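The deposited series table held 1 intensity per probe set and array, on a linear scale. Per the submitters' processing notes it was made with Affymetrix Expression Console. Its version and its steps of background correction, normalization and summarisation are not given in the sources used. Total RNA was labelled with biotin per the labels' protocols. Of 10928 probe sets the platform annotation listed 7245, 5498 of them of S. cerevisiae, for 5449 genes. For the 47 genes with several probe sets 1 probe set was used. Groups were taken from strain and day in the labels.

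Intensities were transformed as log2(intensity + 16) and fitted with limma 3.58.1 (R 4.3.3), with 1 mean per strain and day over 17 arrays, which left 11 residual degrees of freedom. Tests were two-sided with Benjamini-Hochberg adjustment over all 5449 genes and a threshold of 0.05. Differences carry the standard error of the fit, which pools the spread of all 17 arrays and can hide a wider spread at day 2. For RME1 the BM45 arrays at day 2 had an SD of 1.69, while the standard error of the difference was 0.42. The adjusted p-values of limma rest on the same pooled spread. Where a group's mean lay under the background bound, the fold is a lower limit, in which each array of that group is set at its own value or the bound, whichever is higher. The number of arrays limits precision. Counts over lists used pandas 2.3.3 and numpy 2.4.6 under Python 3.11.15, plots used matplotlib 3.10.9, and the fit was tested on simulated data. Gene names and neighbours came from RefSeq's R64 table, without coordinates.

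Named genes were the 15 largest increases and 15 largest decreases among called genes above background without overlap of arrays, in each gene list the 3 called members that changed most, or fewer (up to 2 by smallest p where none was called), and the 5 largest differences between days in each direction. Not all of these are named. Further list members, and genes of the same pathway, were named after their values were seen. The members and lists were chosen with earlier results of these data known. Alternatives were another pseudocount, quantile normalization, median centring, other rules for probe sets, dim genes left out, other variance models, the replicate number as a block, the ACT1 ratio as covariate, arrays left out, and stricter thresholds.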

Additional observations from a re-analysis of the deposited data

Results flagged for a closer look

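The strain difference at day 2 departed from its mean at days 5 and 14, by limma's test of that difference itself, for 1415 genes. The following values are day 2 minus later days on the log2 scale for the genes named above. Among nitrogen genes DAL4 had -3.48, DCG1 -2.64, DAL7 -2.61, DAL2 -1.91, DUR3 -1.78, DAL3 -1.74, GDH1 -1.65 and MEP3 -0.84. Among permeases ALP1 had 2.17, DIP5 -1.50, AGP3 -0.74 and MMP1 -0.45. All but ALP1 of these 12 were more negative at day 2. The AGP3 call ended with a pseudocount of 1, with quantile normalization and with array weights, and its VIN13 values at day 2 lay far under the background bound. The MMP1 call ended without BM45 replicate 4, without VIN13 replicate 2 and without VIN13 replicate 3 (adjusted p up to 0.2005), and also with quantile normalization, median centring and the replicate block.

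Sugar genes were mixed, with SUC2 at 2.23, HXT4 at 1.45, HXT9 at 1.36 and HXT7 at 0.43 on the positive side, and HXT1 at -0.67, HXT10 at -0.97 and MAL13 at -1.61 on the negative side. The HXT10 call ended without BM45 replicate 4 and without VIN13 replicate 2 (adjusted p up to 0.204), and with 1 array left out its value lay between -1.57 and -0.37. The MAL13 call ended without BM45 replicate 4 (adjusted p = 0.0807). Both also ended with the replicate block and without both arrays of high ACT1 ratio, and the HXT1 call ended with median centring. Of 14 serine, glycine and one-carbon genes 3 were more positive at day 2, SER3 at 1.40, GCV1 at 1.32 and GCV2 at 0.57. FDH1, at -0.76, was the 1 more negative. Of all genes 5.54% were more positive and 20.4% more negative. The GCV2 call ended without BM45 replicate 2, without VIN13 replicate 2 (adjusted p up to 0.09) and with the replicate block. Ribosome assembly genes were more negative, with DBP2 at -1.52, SSF1 at -1.32 and ERB1 at -0.97. The SSF1 call ended without BM45 replicate 4 (adjusted p = 0.0578).

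The seripauperin genes PAU2, PAU9, PAU24, PAU23, PAU4 and PAU3 had -1.36, -0.98, -0.81, -0.75, -0.67 and -0.66. The PAU3 and PAU24 calls ended without BM45 replicate 4 and without VIN13 replicate 3 (adjusted p up to 0.154 and 0.204), and with quantile normalization, median centring and the replicate block. YHB1 had -1.24 and HMG2 -0.60, the call of HMG2 ending without either BM45 array (adjusted p up to 0.093). Stress and reserve genes differed in sign, with HSP78 at 1.15, GSY2 at 1.03, STL1 at 1.13 and HSP12 at -1.11. The GSY2 call ended without BM45 replicate 4 (adjusted p = 0.0633). In sulfur metabolism SUL1 had 0.78 and MET1 -0.64. SUL1 lay under background on every day 2 array, and its call ended without BM45 replicate 4, without any one VIN13 array (adjusted p up to 0.26) and with the replicate block.

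The remaining genes were OPT2 at -2.08, IME1 at -0.85, RNR3 at -0.79, FTR1 at -0.72, NGL3 at -0.68, SNO3 at -0.61, SNZ3 at -0.59, YDR316W-B at 0.48 and YGL262W at 0.53. IME1 lay under the background bound on every day 2 array, and the IME1 and FTR1 calls ended with quantile normalization and with array weights. The RNR3 call ended without BM45 replicate 2 (adjusted p = 0.0576), and those of NGL3 and SNO3 without BM45 replicate 4 (0.0912 and 0.0613). The YDR316W-B call ended without BM45 replicate 2 and without VIN13 replicate 2 (up to 0.207), and that of YGL262W without BM45 replicate 4 and without VIN13 replicate 2 (up to 0.0747). NGL3 itself had intensities of 256, 332 and 337 in VIN13, against 871 and 1218 in BM45, a day 2 difference of -1.70 ± 0.15 (adjusted p = 1.31e-06).

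Outside the genes compared, 273 of 3517 probe sets that the annotation does not list were above the background bound on all 5 day 2 arrays. Of the unlisted probe sets 10 were above it on every VIN13 array and below it on both BM45 arrays, and 4 showed the reverse. They are unnamed here.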

How the results depend on the processing

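Of 1702 genes called at day 2, array weights, whose estimate stopped before it converged, left 620, the day 2 arrays alone 108, an adjusted p under 0.01 936 and a minimum of 2-fold 252. Higher genes (433) numbered 728 with quantile normalization, 886 with median centring, 220 with array weights, 57 with day 2 arrays alone, 243 at the stricter p and 133 at 2-fold. Lower genes (1269) numbered 838, 647, 400, 51, 693 and 119 in the same order. The 1415 differences between days became 703 with array weights, 645 at the stricter p and 233 at 2-fold. The more positive ones (302) became 576 with quantile normalization, 718 with centring, 129 with the replicate block, 110 at the stricter p and 98 at 2-fold, and the more negative ones (1113) became 646 with quantile normalization, 585 with centring, 461 with array weights, 535 at the stricter p and 135 at 2-fold. The fit of day 2 arrays alone has fewer arrays and takes its error from them only. The part of each in the drop was not tested, nor was the cause for the other settings.

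Leaving out each day 2 array in turn gave 1322 to 2040 calls, 232 to 950 of them higher, and 952 to 2022 differences between days, 104 to 904 of them more positive. With the replicate block 1494 genes were called at day 2, 304 higher and 1190 lower, and 1058 between days. The day 2 groups share only replicate number 2, and nothing in the labels ties equal numbers to a shared culture. YDR316W-B reversed its difference between days with a pseudocount of 1, to -0.72 (adjusted p = 0.402).

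Of the 102 genes followed in detail 54 were not called with the day 2 arrays alone, 15 with array weights, 11 without BM45 replicate 4 and 6 without both arrays of high ACT1 ratio, and 102 kept their call with the ACT1 ratio as covariate. Low intensities limit the dim genes, which have only bounds.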

Other observations

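Over all genes at day 2, 7.95% were higher in VIN13 and 23.3% lower, and with median centring 886 of 5449 were higher. Pathways not described above had the following counts. Of 34 tested genes for ATP synthase and the respiratory chain 0 were higher and 5 lower, with a median of -0.07, and of 17 of the tricarboxylic acid cycle 1 was higher and 2 lower. Of 33 proteasome genes 2 were higher and 0 lower, with a median of 0.03, and with median centring 11 were higher. Glycolysis and ethanol formation had 4 of 24 genes higher and 1 lower, with a median of 0.11, and with median centring 10 were higher. Peroxisomal beta-oxidation had 1 of 15 genes higher and 4 lower, with a median of -0.37. Purine synthesis had 5 of 13 higher and 3 lower, and pleiotropic drug resistance 5 of 22 higher and 4 lower. The markers of respiring cells summed to 16992 to 22719 in VIN13, against 17464 to 22950.1 in BM45, and 0 of 6 were called by limma.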
